A study of Mus musculus with 11 samples.

Results

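The 10 genes described here belong to the response of cells to unfolded protein in the endoplasmic reticulum (ER): Hspa5, Hsp90b1, Calr, Pdia4, Sdf2l1, Herpud1, Xbp1, Atf4, Ddit3 and Trib3. They were chosen by symbol, and all 10 were found among the 28692 genes of the count tables. Kidneys of male C57Bl/6 mice, operated on at 10 weeks of age where they were injured, were compared in 3 groups. Unilateral ischemia-reperfusion (UIR, 3 libraries) was a 30 min clamp of the left renal pedicle, and unilateral ureteral obstruction (UUO, 3 libraries) an irreversible ligation of the left ureter, and both were harvested 28 days after surgery. Control kidneys (5 libraries, named Ctrl, N1, N2, AN1 and AN2) came from naive male C57Bl/6 mice matched in age, with no sham operation. No transgene or Cre is named for any group. The operated mice had isoflurane anesthesia and buprenorphine at surgery, a drug treatment not named for the naive controls. Each model had 3 mice for 3 libraries and the controls 5 mice for 5 libraries, although no source ties a library to a mouse. Cells were released with a cold-active protease and sequenced with the 10x Single Cell 3′ v3 chemistry, in which every captured transcript carries a unique molecular identifier (UMI).

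Proteins that enter the ER are folded by chaperones, and misfolded ones are taken back to the cytosol and degraded. When unfolded protein builds up, 3 sensors in the ER membrane respond. IRE1 (Ern1) splices the mRNA of the transcription factor Xbp1, ATF6 is cut to release a transcription factor of its own, and PERK (Eif2ak3) slows translation while the mRNA of Atf4 is translated better. XBP1 and ATF6 raise chaperone genes, among them Hspa5 (BiP, the main ER chaperone of the HSP70 family), Hsp90b1 (GRP94, of the HSP90 family), Calr (calreticulin, which binds glycoproteins), Pdia4 (a protein disulfide isomerase) and Sdf2l1 (a partner of BiP), together with Herpud1, a part of the ER-associated degradation machinery. ATF4 raises genes of amino acid supply and the transcription factor Ddit3 (CHOP), linked to cell death under prolonged stress, and Trib3, a pseudokinase that CHOP and ATF4 induce. In the kidney the response is known from tubular cells and podocytes under injury. Counts at the 3′ end of a gene do not show whether Xbp1 mRNA was spliced, nor how much ATF4 protein was made, so that values of these genes are total mRNA.

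Several promoters of these genes hold a known element, shown here for 4 of the chaperone genes, with sequence from RefSeq (GRCm38.p6). All 10 genes had a promoter entry, which runs from 250 bases before the RefSeq start of transcription to 50 after it. The ER stress response element (ERSE) is written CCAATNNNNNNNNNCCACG. On either strand it occurred in the promoters of Hspa5, Hsp90b1 and Calr, against 39 of all 32851 promoters (0.119%). Without its last G (CCAATNNNNNNNNNCCAC, a shorter form that every ERSE contains) it occurred also in those of Pdia4 and Herpud1 (the Herpud1 window is not shown), against 0.365% of all promoters. Neither form was in the Sdf2l1 window. In the windows of 30 bases below, read 5′ to 3′ along the gene, the capitals are the matched element and positions are counted from the RefSeq start. In Calr, Pdia4 and the second window of Hsp90b1 the element lies on the opposite strand, so that it reads CGTGG or GTGG first and ATTGG last.
Hspa5 (chr2:34772020-34772049, plus strand, capitals at -65 to -47): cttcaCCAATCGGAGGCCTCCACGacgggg
Hsp90b1 (chr10:86705632-86705661, minus strand, capitals at -212 to -194): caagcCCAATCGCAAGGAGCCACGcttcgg
Hsp90b1 (chr10:86705527-86705556, minus strand, capitals at -107 to -89): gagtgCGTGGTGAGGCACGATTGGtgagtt
Calr (chr8:84847069-84847098, minus strand, capitals at -162 to -144): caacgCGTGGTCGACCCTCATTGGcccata
Pdia4 (chr6:47813596-47813625, minus strand, capitals at -107 to -90): aaccgaGTGGCAGCCCGTGATTGGtggtcg

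Herpud1 also held the related ERSE-II (ATTGGNCCACG, in 0.0365% of all promoters) and, on the opposite strand, the amino acid response element that ATF4 binds with a CEBP partner (CARE, TGATGCAA, 0.895%). Both are shown because Herpud1 is the only one of these genes that matched elements of the ATF6 and XBP1 arms and of the ATF4 arm in this window.
Herpud1 (chr8:94386368-94386397, plus strand, capitals at -52 to -42): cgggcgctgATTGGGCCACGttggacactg
Herpud1 (chr8:94386306-94386335, plus strand, capitals at -112 to -105): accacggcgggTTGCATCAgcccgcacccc
The unfolded protein response element of XBP1 (UPRE, TGACGTGG) was in none of the promoters of these genes and in 0.676% of all promoters. A match is a description of the letters and no match says nothing about the factor. The gene intervals that follow are of the GENCODE annotation, whose starts can differ from those of RefSeq. The Hspa5 window shown above, counted from the RefSeq start, lies inside the GENCODE interval of the gene. Hspa5 lies at chr2:34771970-34777547 (GRCm38), Hsp90b1 at chr10:86690209-86705509, Calr at chr8:84841850-84846934, Pdia4 at chr6:47796141-47813430, Sdf2l1 at chr16:17130138-17132383 and Herpud1 at chr8:94386438-94395377. Xbp1 lies at chr11:5520659-5525893, Atf4 at chr15:80255184-80257541, Ddit3 at chr10:127290774-127296288 and Trib3 at chr2:152337422-152344032.

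The libraries held 49503312 to 117043590 UMIs each, and 40587 cells were kept (10271 control, 16944 UIR and 13372 UUO). Called barcodes with over 30% mitochondrial UMIs were left out, which took 57.0% to 78.8% of the called barcodes from the controls. From UIR this took 23.9% to 37.3%, and from UUO 3.15% to 8.01%. Cells were clustered without these genes and without the marker genes, and clusters were named by markers: proximal tubule (PT), thick ascending limb of the loop of Henle (LOH), distal tubule (DT), collecting duct principal (CD-P) and intercalated (CD-I) cells, podocytes (Podo), endothelium (Endo), 3 fibroblast classes, immune classes and failed repair tubular epithelial clusters (frTEC, each with its leading gene). Clusters without a name were left out of the classes, with 1.02% to 1.86% of the cells of the control libraries, 10.9% to 14.1% of UIR and 13.9% to 16.4% of UUO, among them a cluster led by Fabp4, with Erg and Plvap, of 41 control, 409 UIR and 388 UUO cells. UMIs were summed per class and library (a pool, at least 20 cells), so that the libraries are the replicates. PT had 1256 to 1706 cells per control library but 41 to 95 per UUO library. In the distal classes different sub-clusters held the most control and the most UUO cells. In LOH, a cluster led by Egf had 280 control, 95 UIR and 8 UUO cells and one led by Slc12a1 and Umod 3 control, 857 UIR and 324 UUO cells. In DT the clusters led by Pvalb, by Calb1 and by Tmem52b had 213 control, 31 UIR and 10 UUO cells, 328 control, 295 UIR and 40 UUO cells and 2 control, 296 UIR and 80 UUO cells. In CD-P those led by Aqp3, by S100g and by Aqp2 had 119 control, 123 UIR and 8 UUO cells, 159 control, 36 UIR and 1 UUO cells and 106 control, 17 UIR and 0 UUO cells, and one led by Sprr2f, a gene of barrier epithelia, 1 control, 190 UIR and 358 UUO cells. The S100g cluster shares its leading genes S100g and Calb1 with DT, and leaving it out of CD-P was added as an alternative after the data were seen. Without it 15 tests in place of 18 passed in UUO, the falls of Hspa5, Xbp1 and Sdf2l1 in CD-P being lost. In CD-I those led by Atp6v1g3 and by Dmrt2 had 153 control, 225 UIR and 48 UUO cells and 0 control, 142 UIR and 182 UUO cells. Outside the tubule, the Macro clusters led by C1qa and by Ccl8 had 271 control, 1241 UIR and 1334 UUO cells and 145 control, 2495 UIR and 2871 UUO cells, and of both podocyte clusters the one led by Cdkn1c had 32 control, 169 UIR and 82 UUO cells and the other 228 control, 184 UIR and 66 UUO cells. Levels between classes are given as CPM, the usual scaling of a gene's UMIs by the total UMIs of the pool, and changes within a class as normalized CPM, scaled by edgeR's TMM factors. Values are listed in the order Ctrl, N1, N2, AN1 and AN2 for the controls, and unnumbered, 1 and 2 for UIR and UUO.

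Across cell classes, each of these genes except Trib3 had UMIs in all 22 classes that had a pool, and the order of levels differed between genes. Hspa5 was highest in Podo (395 to 1811, median 1298), Plasma (1068) and Fibro 1 (667 to 1166, median 859.9) CPM and lowest in DT (227 to 482, median 319) and B (215 to 286, median 264). Plasma cells had a single pool of 24 UUO cells, and there Hsp90b1 stood at 3761 CPM, followed by Podo (467 to 1459, median 1073) and Fibro 1 (848 to 1186, median 861). Pdia4 had the same first classes, with Plasma (787), Podo (108 to 274, median 220.1) and Fibro 1 (102 to 184, median 165) CPM. Calr was highest in Podo (287 to 947, median 800.3), Plasma (757) and Fibro 1 (524 to 969, median 715) CPM and lowest in B (212 to 288, median 239.6) and Neutro (165 to 208, median 187). These chaperones thus shared Podo and Fibro 1 among their leading classes, and neutrophils (Neutro) were the lowest class for Calr, Hsp90b1 and Pdia4.

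The remaining genes were ordered otherwise. Sdf2l1 was highest in Plasma (504), cDC1 (218 to 317, median 259) and Macro (116 to 209, median 155) CPM, and the ranges of these classes did not overlap. Herpud1 had a like order, with Plasma (255), Macro (123 to 254, median 184) and cDC1 (110.2 to 215, median 177) CPM and was lowest in CD-P (29.1 to 53.3, median 34.6) and Neutro (28.2 to 39.7, median 29.4). Xbp1, the factor that plasma cells need to secrete antibody, was at 1499 CPM in the plasma cell pool and next highest in Mono (314 to 330.0, median 318) and Neutro (279.6 to 551, median 312). Ddit3 was highest in Neutro (114 to 225, median 193) and Podo (0 to 84.4, median 50.5) CPM, where the 0 is the unnumbered UUO library and allows up to 108 CPM (3 UMIs, counting error only). No neutrophil pool overlapped a podocyte pool, while PT was near the lowest end with 7.87 to 41.6 CPM. Atf4 was highest in Neutro (151 to 199, median 171), Podo (66.3 to 179.5, median 105) and Endo (76.7 to 129.6, median 104) CPM and lowest in Macro (46.0 to 72.5, median 53.4) and PT (20.8 to 83.1, median 47.3). Trib3 had a median of 0 in several classes and had its highest median in Endo, at 2.08 to 7.96 CPM, while 1 pool of the frTEC cluster led by Ubd reached 17.6 CPM. Most neighbours in these orders overlapped: of the steps from one class to the next, 21 overlapped for Hspa5, 19 for Hsp90b1, 19 for Xbp1, 20 for Ddit3 and 18 for Sdf2l1, of 21 steps each. Levels mix control and injured libraries and were not tested between classes.

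**Figure D1:**
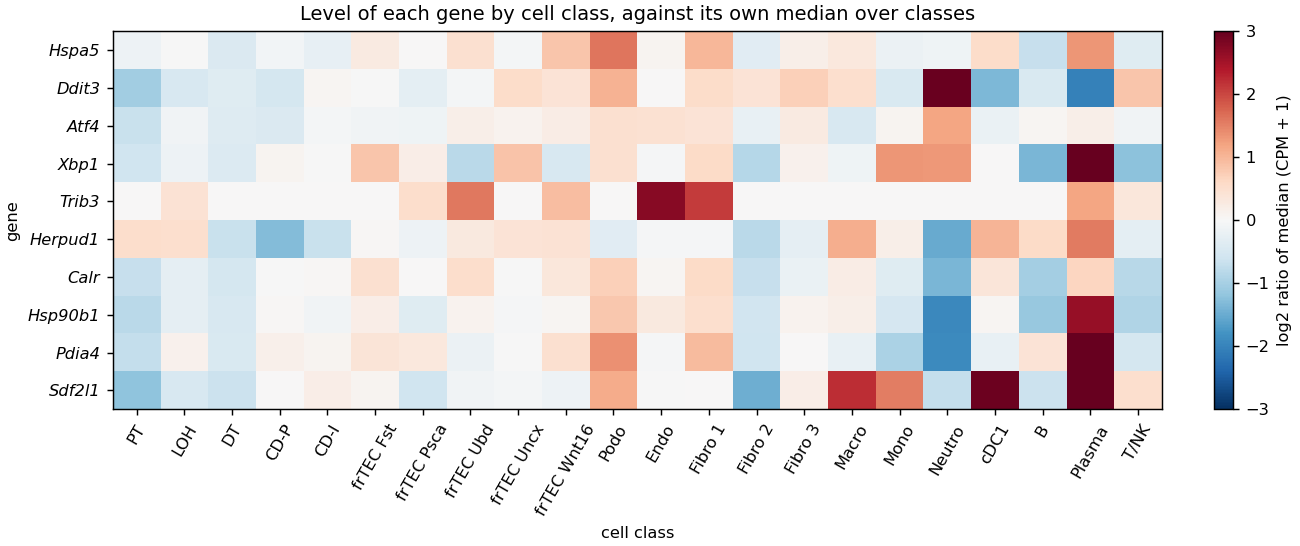
Heat map of the level of each gene (rows) in each cell class (columns), as the log2 ratio of its median CPM + 1 over libraries to its own median over classes, red above and blue below, with colours capped at 3 either way. Plasma cells lead for Hsp90b1, Pdia4, Sdf2l1, Herpud1 and Xbp1, neutrophils for Ddit3 and Atf4 and podocytes for Hspa5 and Calr.

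The main question was which of these genes differed between injured and control kidneys within a class. In UIR, 7 of 82 tests of a gene in a class passed an adjusted p under 0.05 (8.54%), 5 higher and 2 lower than control, against 13.2% of all genes tested in the same 9 classes. In UUO, 18 of 89 passed (20.2%), 3 higher and 15 lower, against 17.0% in 10 classes. These shares are near those of all genes, and nothing is read from them about the genes as a group. The 18 calls of UUO became 11 without UUO1, 11 without the AN libraries and 9 with cells limited to 15% mitochondrial UMIs, where CD-I, T/NK and Fibro 3 kept 1 control pool and 64 tests in place of 89 were made. At that limit CD-P and LOH kept 2 control pools and DT kept 3, so that calls lost there were tested with fewer controls. Without the filter on low counts 22 of 99 passed. The shares of all genes called in these alternative fits are not given, so that nothing is read from their counts. At an unadjusted p under 0.05, 14 tests in UIR and 31 in UUO passed. Of all genes, the share that passed so ranged in UIR from 850 of 9754 in T/NK to 3385 of 7723 in DT. In UUO it ranged from 1223 of 9754 in T/NK to 5034 of 10739 in CD-P. Nothing is read from these counts either. Trib3 passed the filter on low counts in Endo alone, and Ddit3 and Sdf2l1 did not pass it in Fibro 3. The labels give no batch for any library. The controls were grouped by the prefix of their names (Ctrl, N and AN), and these groups hold controls alone. Batch was thus not a term of the fits and was not told apart from injury. P-values measure the spread between these libraries.

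By class, most calls lay in the distal classes, where the shares of all genes called were mostly largest too, and nothing is read from their place. LOH had 2 calls among 9 genes in UIR and 3 in UUO, against 29.9% and 30.4% of all genes, all of them lower. DT had 3 calls in UIR, all higher, and 2 in UUO (1 higher), against 36.0% and 34.5%. CD-P had 1 in UIR and 5 in UUO (4 lower), against 21.0% and 39.2%. CD-I had 0 in UIR and 3 in UUO, all lower, against 9.83% and 21.9%. PT had 1 in UIR (higher) and 1 in UUO (lower), against 12.3% and 4.46%. Endo had 0 in UIR and 3 of 10 in UUO (2 lower), against 1.99% and 12.0%. Podo had 0 in UIR and 1 in UUO, against 1.5% and 2.13%. No gene was called by edgeR in Macro (all genes 6.04% in UIR and 10.7% in UUO), in T/NK (0.554% and 2.07%) or, in UUO, in Fibro 3 (2.46%), with TMM. Hsp90b1 in T/NK of UUO passed with DESeq2 size factors or with the DESeq2 test (log2 fold change -0.69 in both, adjusted p 0.00495 to 0.0404). There control AN2 stood at 633 normalized CPM and the other controls at 331 to 398, in control pools of 21 to 28 cells.

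The median log2 fold change over the tested genes in UUO was -0.49 in PT (all genes -0.14), -0.44 in LOH (0.02), -0.36 in Podo (-0.02), -0.31 in CD-I (0.03), -0.27 in Fibro 3 (0.00), -0.25 in T/NK (0.11), -0.15 in CD-P (0.02), -0.11 in Endo (0.01), -0.01 in Macro (0.03) and 0.04 in DT (0.03). In UIR the medians ranged from -0.20 in Podo to 0.07 in PT.

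**Figure D2:**
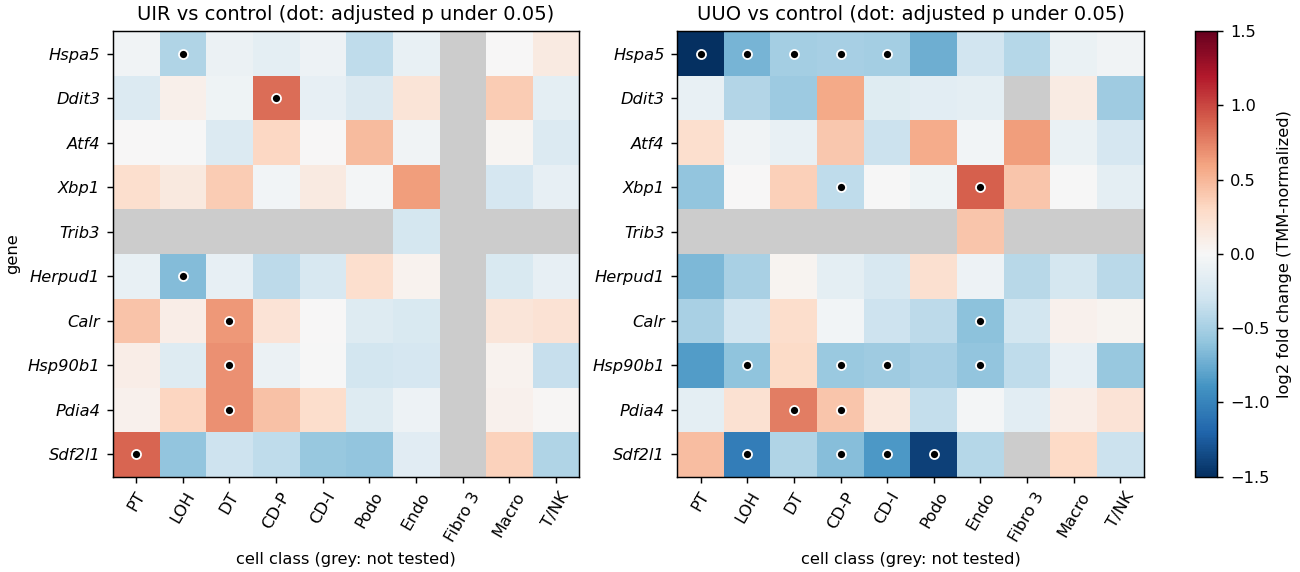
Log2 fold change of each gene (rows) in each class (columns) for UIR and UUO against control, with a dot where the adjusted p is under 0.05 and grey where a gene was not tested. The calls in UUO are lower for Hspa5, Hsp90b1, Calr, Sdf2l1 and, in CD-P, Xbp1, and higher for Pdia4 in DT and CD-P and for Xbp1 in Endo.

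The scale matters for these counts. TMM centres each class on the bulk of its genes, and with total UMIs as the only scaling the median of all genes in the distal classes lay above control, by 0.29 (log2) in LOH, 0.33 in DT, 0.18 in CD-P and 0.26 in CD-I of UIR, and by 0.29, 0.41, 0.26 and 0.37 in UUO. It also lay above by 0.13 in Fibro 3 of UUO, and by at most 0.10 in the other classes. Changes are therefore relative to the TMM centre of the class, from which the median of all genes lay -0.14 away in PT of UUO (-0.13 against UIR), 0.11 in T/NK of UIR and 0.11 in T/NK of UUO, and by less than 0.05 in the other classes. On total UMIs, 10 tests were called in UIR (10 higher, 0 lower) and 14 in UUO (9 higher, 5 lower), in place of 5 and 2 and of 3 and 15. The shares of all genes called on that scale are not given, so that nothing is read from these counts. None of the 26 changes called with TMM, that of UUO against UIR included, turned its direction on total UMIs. Mitochondrial UMIs moved with the groups in these and other classes: they made up 18.7 to 24.0% of the pools in control LOH, 9.64 to 11.5% in UIR and 8.79 to 9.88% in UUO, and 19.4 to 21.8%, 12.4 to 15.5% and 9.85 to 10.8% in CD-P. In UUO their share lay below every control also in Endo (6.34 to 12.3% in control, 5.08 to 5.21% in UUO), Macro (7.55 to 16.0% and 4.66 to 6.0004%) and T/NK (6.87 to 13.5% and 5.52 to 5.9958%). The Endo calls in UUO were kept with cells limited to 15% mitochondrial UMIs. Leaving mitochondrial genes out of the pools gave the same counts of calls as keeping them. Since TMM centres on the bulk of the genes, this setting could move little. It does not show what part the unequal mitochondrial shares have in the calls. With cells limited to 15% mitochondrial UMIs, 9 calls in place of 18 were made in UUO, with fewer control pools, as given above.

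**Figure D3:**
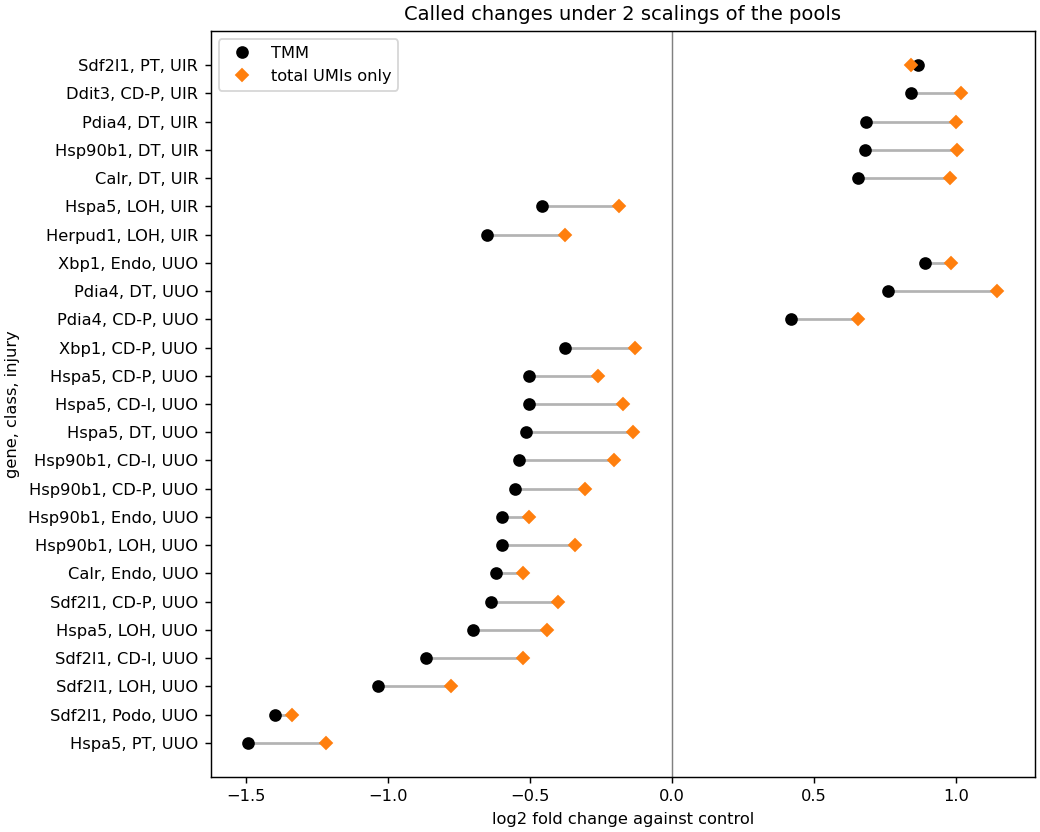
Log2 fold change of the called changes against control with TMM scaling and with total UMIs of the pool as the only scaling, 1 point per gene and class. Points of the distal classes move up on total UMIs, and none of the calls made with TMM crosses 0. Changes called on total UMIs alone are not drawn.

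Hspa5 (BiP) was lower in UUO in all 5 tubular classes tested against control and passed the test in each, though in CD-P not without the S100g cluster. In LOH it stood at 579, 323, 503, 607 and 679 normalized CPM in the controls, 389.9, 425 and 379 in UIR and 349.9, 320.5 and 337 in UUO. All injured libraries lay below 4 of the 5 controls, and the other control, N1, lay among the UUO values. The change was 1.62-fold lower in UUO (log2 fold change -0.70, SE 0.16, adjusted p = 0.00185) and 1.37-fold lower in UIR (log2 fold change -0.46, SE 0.16, adjusted p = 0.0343). Hspa5 lost its LOH call in UUO at the mitochondrial limit of 15% (log2 fold change -0.19, adjusted p = 0.654). Hspa5 lost its LOH call in UIR without Ctrl, AN1, AN2, the unnumbered UIR library, UIR1 or UIR2 (log2 fold changes -0.50 to -0.36, adjusted p 0.0504 to 0.116), without the AN libraries (log2 fold change -0.26, adjusted p = 0.303) and with total UMIs as the only scaling, without the filter on low counts or at the mitochondrial limit of 15% (log2 fold changes -0.35 to 0.05, adjusted p 0.0792 to 0.926).

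In CD-P, CD-I and DT the estimated change of Hspa5 in UUO was near 0.5 on the log2 scale. CD-P had 495, 414, 427, 522 and 478 normalized CPM in the controls, 398, 483 and 391 in UIR and 347, 332 and 312 in UUO. Every UUO library was below every control there (log2 fold change -0.50, SE 0.12, adjusted p = 0.00256). CD-I had 514, 367, 408, 352 and 538 normalized CPM in the controls, 429, 370.5 and 452 in UIR and 344, 292 and 295 in UUO. Again UUO and control did not overlap (log2 fold change -0.50, SE 0.16, adjusted p = 0.0302). DT had 548, 272, 339, 429 and 334 normalized CPM in the controls, 305, 427 and 369.8 in UIR and 247, 266 and 308 in UUO. Here N1 lay among the UUO libraries (log2 fold change -0.51, SE 0.18, adjusted p = 0.0265). None of these classes was called in UIR (log2 fold changes -0.14, -0.08 and -0.09). Hspa5 lost its CD-P call in UUO with total UMIs as the only scaling, at the mitochondrial limit of 15% or without the S100g cluster (log2 fold changes -0.32 to -0.23, adjusted p 0.0851 to 0.345). Hspa5 lost its CD-I call in UUO without Ctrl, AN2, UUO1 or UUO2 (log2 fold changes -0.47 to -0.42, adjusted p 0.0687 to 0.112), without the AN libraries (log2 fold change -0.48, adjusted p = 0.0632) and with total UMIs as the only scaling or without the filter on low counts (log2 fold changes -0.46 to -0.17, adjusted p 0.0505 to 0.414). Hspa5 lost its DT call in UUO without Ctrl, AN1, the unnumbered UUO library or UUO1 (log2 fold changes -0.49 to -0.34, adjusted p 0.0537 to 0.126), without the AN libraries (log2 fold change -0.55, adjusted p = 0.0540) and with total UMIs as the only scaling, with the DESeq2 test or at the mitochondrial limit of 15% (log2 fold changes -0.49 to -0.09, adjusted p 0.0529 to 0.791). Pools of at least 50 cells left 1 UUO pool in DT, so that DT of UUO was not tested with them.

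Markers moved in both collecting duct classes too. In CD-P 5 of the 5 own markers were lower in UIR and 5 of the 5 in UUO, and they summed to 9517 to 16079 CPM per control pool, 6928 to 7689.8 per UIR pool and 2311 to 3031 per UUO pool. PT markers in the CD-P pools fell from sums of 157 to 344 CPM to 63.3 to 143 (UIR, 6 of the 10 tested) and 8.88 to 24.3 (UUO, 10 of the 10). In CD-I 1 of the 5 own markers were lower in UIR and 4 of the 5 in UUO, with sums of 8163 to 10285 CPM in control, 5301 to 8439 in UIR and 4785 to 6970.2 in UUO pools. PT markers in the CD-I pools summed to 159 to 762 CPM in control, 113 to 138 in UIR (5 of the 6 tested were lower) and 15.5 to 25.7 in UUO (6 of the 6). None of these markers was at 0 in all pools. The part of these shifts in the CD-P and CD-I values of Hspa5 and of the other genes was not tested.

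In PT Hspa5 had its largest change among the classes tested. The libraries stood at 504, 309, 426, 555 and 632 normalized CPM in the controls, 346, 557 and 496 in UIR and 111, 204 and 183 in UUO. UUO thus lay below all others, 2.81-fold lower than control (log2 fold change -1.49, SE 0.29, adjusted p = 0.00245). The UUO values rest on 8, 13 and 74 UMIs of Hspa5 in pools of 41 to 95 cells. Free RNA was estimated at 4.94 to 19.7% of the UMIs of these pools against 7.46 to 13.3% in the controls. Of the PT markers, 8 of the 11 were lower in UUO, none was at 0, and they summed to 13205 to 14615 CPM in control and 7529 to 10194 in UUO pools. The sub-clusters of PT took unequal shares as well: the one led by Cndp2 had 1418 control, 1323 UIR and 98 UUO cells, and the one led by Car3 2240 control, 538 UIR and 28 UUO cells. With free RNA subtracted the call was kept. The part of markers and sub-clusters in this change was not tested. Hspa5 lost its PT call in UUO with predicted doublets kept (log2 fold change -0.65, adjusted p = 0.0606). It was not tested with pools of at least 50 cells or with cells of at least 1000 UMIs, which left 1 UUO pool of PT. In UIR, PT did not pass (log2 fold change -0.06, adjusted p = 0.900). In Podo, where the gene is highest, it stood at 1825, 1109.8, 1407, 1942 and 1578 normalized CPM in the controls, 757, 1428 and 1421 in UIR and 369, 1020.4 and 1099 in UUO. It did not pass in UUO there (log2 fold change -0.73, adjusted p = 0.0790), but passed without the filter on low counts, with pools of at least 50 cells, with predicted doublets kept or without the unnumbered UIR library or the N libraries (log2 fold changes -0.92 to -0.71, adjusted p 0.000105 to 0.0448). Endo, Macro and T/NK did not pass in UUO either, with log2 fold changes of -0.29, -0.10 and -0.05.

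**Figure D4:**
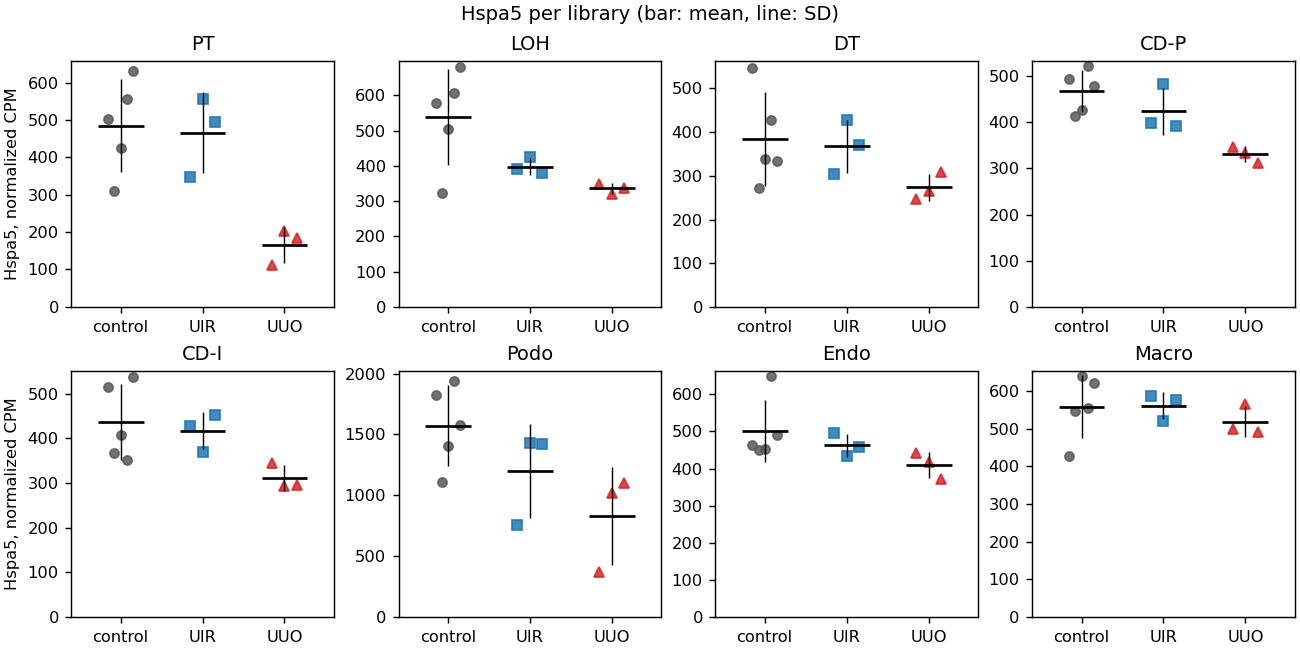
Hspa5 in normalized CPM by library in 8 classes, each point 1 library, the bar the group mean and the line its SD (5 control, 3 UIR and 3 UUO libraries). In PT the 3 UUO libraries lie at 111 to 204, below the controls at 309 to 632, and in CD-P at 312 to 347 against 414 to 522.

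Hsp90b1 (GRP94) fell with Hspa5 in LOH, CD-P and CD-I of UUO, and also in Endo. Endo stood at 932, 768, 833, 853 and 782 normalized CPM in the controls, 589.8, 737 and 783 in UIR and 586, 535 and 535 in UUO. No UUO library reached a control (1.51-fold lower, log2 fold change -0.60, SE 0.12, adjusted p = 0.00241). This change was kept under every alternative tried. LOH stood at 726, 493, 442, 636 and 754 normalized CPM in the controls, 479, 579 and 558 in UIR and 442, 385 and 393 in UUO (log2 fold change -0.60, SE 0.16, adjusted p = 0.00579), and its highest UUO library lay less than 1 normalized CPM below the lowest control. CD-P stood at 837, 571, 851, 702 and 659 normalized CPM in the controls, 557, 763 and 724 in UIR and 522, 487 and 471 in UUO (log2 fold change -0.55, SE 0.15, adjusted p = 0.00517). CD-I stood at 816, 500.1, 653, 648 and 708 normalized CPM in the controls, 549, 723 and 714 in UIR and 458, 451 and 469 in UUO (log2 fold change -0.54, SE 0.16, adjusted p = 0.0191). In neither did UUO and control overlap. Hsp90b1 lost its LOH call in UUO without the AN libraries (log2 fold change -0.46, adjusted p = 0.0637) and with total UMIs as the only scaling or at the mitochondrial limit of 15% (log2 fold changes -0.34 to 0.26, adjusted p 0.104 to 0.495). Hsp90b1 lost its CD-P call in UUO with total UMIs as the only scaling or at the mitochondrial limit of 15% (log2 fold changes -0.31 to -0.28, adjusted p 0.0877 to 0.406). Hsp90b1 lost its CD-I call in UUO without Ctrl, the unnumbered UUO library, UUO1 or UUO2 (log2 fold changes -0.55 to -0.46, adjusted p 0.05004 to 0.0580), without the AN libraries (log2 fold change -0.52, adjusted p = 0.0619) and with total UMIs as the only scaling (log2 fold change -0.20, adjusted p = 0.335).

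In DT the same gene rose in UIR instead. It stood at 451, 305, 296, 429 and 299.97 normalized CPM in the controls, 441, 641 and 647 in UIR and 392, 464 and 462 in UUO. This was 1.60-fold higher in UIR (log2 fold change 0.68, SE 0.16, adjusted p = 0.00114), with the unnumbered UIR library within the control range. The gene did not pass in UUO there (log2 fold change 0.29, adjusted p = 0.190), but passed with total UMIs as the only scaling or at the mitochondrial limit of 15% (log2 fold changes 0.67 to 0.72, adjusted p 0.00206 to 0.0390). Calr (calreticulin) did likewise in DT, at 352, 294, 269, 325 and 229 normalized CPM in the controls, 356, 511 and 528 in UIR and 301, 413 and 341 in UUO. All of the UIR libraries were above the controls, the unnumbered one by little (log2 fold change 0.65, SE 0.16, adjusted p = 0.00131). Both rises in DT were kept under every alternative, of which leaving out the S100g cluster left the DT pools as they were. All 5 DT markers fell in UIR and in UUO, and summed to 6414 to 10043 CPM in control, 2063 to 2262 in UIR and 988 to 2145 in UUO pools. PT markers in the DT pools summed to 341 to 682, 89.4 to 187 and 14.1 to 32.9 CPM, with none of the 11 at 0 throughout. Their part in the result was not tested.

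Calr fell in 1 class, Endo of UUO. The libraries stood at 638, 520.3, 729.7, 533 and 537 normalized CPM in the controls, 433, 545 and 538 in UIR and 352, 420.0 and 384 in UUO. Every UUO library was below every control and every UIR library (1.54-fold lower, log2 fold change -0.62, SE 0.14, adjusted p = 0.00431), and the call was kept under every alternative. None of the 5 endothelial markers was called in UUO, and they summed to 6833 to 8619.9 CPM in control and 8407 to 8658 in UUO pools. The endothelial cluster led by Ehd3 had 240 control, 428 UIR and 729 UUO cells. That led by Plvap had 225, 432 and 528, and that led by Sox17 210, 361 and 392. The unnamed cluster led by Fabp4, left out of Endo, shares Plvap and Rgcc with the Plvap cluster. The part of these shares and of the cluster left out in the Endo results was not tested. PT markers in the Endo pools summed to 648 to 988 CPM in control and 519 to 579.8 in UUO, 9 of the 10 tested being lower in UUO, none of the 11 at 0 throughout, and their part in the Endo results was not tested. In PT of UIR Calr did not pass, at 266 to 397 normalized CPM per control, 356 to 525 per UIR and 138 to 294 per UUO library (log2 fold change 0.42, adjusted p = 0.0880), but passed without the filter on low counts, with predicted doublets kept or without Ctrl, the unnumbered UIR library or UUO2 (log2 fold changes 0.42 to 0.55, adjusted p 0.0188 to 0.0470). In DT of UUO it passed with total UMIs as the only scaling or at the mitochondrial limit of 15% (log2 fold changes 0.64 to 1.17, adjusted p 0.000884 to 0.00292). In the other classes its log2 fold changes in UUO lay from -0.49 to 0.26.

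Pdia4, the disulfide isomerase, rose in UUO in DT and CD-P. In DT it stood at 64.1, 47.8, 63.0, 50.3 and 32.5 normalized CPM in the controls, 83.2, 79.0 and 91.8 in UIR and 124, 84.2 and 58.5 in UUO. All UIR libraries and 2 of 3 UUO libraries were above the controls (log2 fold change 0.68, SE 0.20, adjusted p = 0.00745 in UIR, log2 fold change 0.76, SE 0.22, adjusted p = 0.00842 in UUO). In CD-P it stood at 93.2, 66.5, 81.2, 62.6 and 89.6 normalized CPM in the controls, 110.1, 109 and 104 in UIR and 130.5, 102 and 85.0 in UUO. Pdia4 passed in UUO (log2 fold change 0.42, SE 0.15, adjusted p = 0.0383), where UUO2 lay within the controls, but not in UIR (log2 fold change 0.44, adjusted p = 0.0553), where no library did. In CD-P of UIR it passed with total UMIs as the only scaling, without the filter on low counts, without the S100g cluster or without Ctrl, the unnumbered UUO library or UUO2 (log2 fold changes 0.44 to 0.61, adjusted p 0.00785 to 0.0388). Pdia4 lost its DT call in UIR without the AN libraries (log2 fold change 0.48, adjusted p = 0.109). Pdia4 lost its DT call in UUO without the unnumbered UUO library (log2 fold change 0.45, adjusted p = 0.154) and without the AN libraries (log2 fold change 0.56, adjusted p = 0.0871). Pdia4 lost its CD-P call in UUO without N1, N2, AN1, the unnumbered UUO library or UUO1 (log2 fold changes 0.25 to 0.45, adjusted p 0.0559 to 0.228), without the N libraries or the AN libraries (log2 fold changes 0.35 to 0.37, adjusted p 0.114 to 0.144) and at the mitochondrial limit of 15% (log2 fold change 0.68, adjusted p = 0.0948). In LOH, CD-I, PT, Endo, Podo, Macro, T/NK and Fibro 3 the gene passed in neither model where it was tested, with TMM, the filter on low counts and all pools. In LOH of UIR it passed with total UMIs as the only scaling, at the mitochondrial limit of 15% or without AN2 or the AN libraries (log2 fold changes 0.57 to 1.73, adjusted p 0.0149 to 0.0453), and in LOH of UUO passed at the mitochondrial limit of 15% (log2 fold change 1.64, adjusted p = 0.0228). In CD-I it passed with total UMIs as the only scaling in UIR (log2 fold change 0.51, adjusted p = 0.0409) and in UUO (log2 fold change 0.50, adjusted p = 0.0259).

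Sdf2l1 moved in both directions. In PT of UIR it rose, at 14.2, 8.05, 8.57, 12.9 and 14.8 normalized CPM in the controls, 20.7, 25.1 and 18.4 in UIR and 0, 15.7 and 19.8 in UUO. Every UIR library was above every control (1.83-fold higher, log2 fold change 0.87, SE 0.19, adjusted p = 0.00253). The UUO libraries of PT hold 0, 1 and 8 UMIs of the gene, and the 0, of the unnumbered library, allows up to 62.4 CPM (3 UMIs), so that no level below the controls was detectable in that library. Sdf2l1 lost its PT call in UIR without UIR1 (log2 fold change 0.72, adjusted p = 0.0632) and at the mitochondrial limit of 15% (log2 fold change 0.75, adjusted p = 0.166).

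In UUO Sdf2l1 fell in LOH, CD-P, CD-I and Podo. Podo stood at 111, 79.3, 171, 108 and 98.4 normalized CPM in the controls, 62.6, 76.5 and 77.1 in UIR and 67.2, 21.9 and 66.3 in UUO. All injured libraries were below the controls (2.63-fold lower, log2 fold change -1.40, SE 0.32, adjusted p = 0.0154), though the UUO values are 2, 8 and 17 UMIs. The podocytes of control and UUO lay mostly in different clusters, as given above. Of the podocyte markers, 0 of the 4 tested were lower in UUO, and of the PT markers 4 of the 5, and their part in the Podo values was not tested. CD-I stood at 59.0, 58.6, 36.7, 51.0 and 54.2 normalized CPM in the controls, 35.4, 41.1 and 24.7 in UIR and 35.5, 20.02 and 32.6 in UUO (log2 fold change -0.87, SE 0.26, adjusted p = 0.0188), with the UUO libraries below the lowest control, N2. The other falls overlapped with the controls. LOH stood at 20.4, 10.3, 26.2, 57.8 and 51.7 normalized CPM in the controls, 21.4, 23.4 and 22.8 in UIR and 26.1, 13.6 and 8.55 in UUO (log2 fold change -1.04, SE 0.36, adjusted p = 0.0289), and AN1 and AN2 were highest there. CD-P stood at 47.2, 59.0, 37.4, 33.4 and 32.6 normalized CPM in the controls, 28.7, 34.6 and 33.2 in UIR and 40.3, 20.5 and 21.5 in UUO (log2 fold change -0.64, SE 0.23, adjusted p = 0.0371). Sdf2l1 lost its Podo call in UUO without UUO1 (log2 fold change -0.74, adjusted p = 0.487) and with predicted doublets kept (log2 fold change -0.85, adjusted p = 0.154). Sdf2l1 lost its CD-I call in UUO without AN2 or UUO1 (log2 fold changes -0.84 to -0.59, adjusted p 0.0505 to 0.134), without the AN libraries (log2 fold change -0.83, adjusted p = 0.0856) and with total UMIs as the only scaling or with pools of at least 50 cells (log2 fold changes -1.005 to -0.52, adjusted p 0.0666 to 0.112). Sdf2l1 lost its LOH call in UUO without AN1, AN2, UUO1 or UUO2 (log2 fold changes -0.85 to -0.79, adjusted p 0.0758 to 0.139), without the AN libraries (log2 fold change -0.29, adjusted p = 0.689) and with total UMIs as the only scaling or at the mitochondrial limit of 15% (log2 fold changes -1.04 to -0.78, adjusted p 0.0813 to 0.405). Sdf2l1 lost its CD-P call in UUO without Ctrl, N1, UUO1 or UUO2 (log2 fold changes -0.58 to -0.43, adjusted p 0.0931 to 0.199), without the N libraries (log2 fold change -0.52, adjusted p = 0.134) and with total UMIs as the only scaling, with the DESeq2 test, at the mitochondrial limit of 15% or without the S100g cluster (log2 fold changes -0.65 to -0.30, adjusted p 0.0580 to 0.418).

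Herpud1, of the degradation arm, fell in LOH of UIR. It stood at 150.4, 92.4, 157, 179.9 and 145 normalized CPM in the controls, 83.1, 89.6 and 109 in UIR and 104, 133 and 73.9 in UUO. Of the controls, N1 alone lay among the UIR libraries (1.57-fold lower, log2 fold change -0.65, SE 0.18, adjusted p = 0.00709), and missed the threshold in UUO (log2 fold change -0.48, adjusted p = 0.0518). Herpud1 lost its LOH call in UIR without the AN libraries (log2 fold change -0.56, adjusted p = 0.0699) and with total UMIs as the only scaling or at the mitochondrial limit of 15% (log2 fold changes -0.37 to -0.11, adjusted p 0.109 to 0.908). Herpud1 in LOH of UUO passed with cells of at least 1000 UMIs, with pools of at least 50 cells, with predicted doublets kept or without N1, the unnumbered UIR library, UIR2 or UUO1 (log2 fold changes -0.71 to -0.48, adjusted p 0.00813 to 0.0498). It passed in no other class on the TMM scale with the filter on low counts, and in UUO its log2 fold changes lay from -0.67 to 0.24 over 10 classes. Markers moved in LOH as well: PT markers in its pools summed to 279.9 to 510.2 CPM in control, 69.5 to 130.5 in UIR and 16.8 to 35.1 in UUO, all 8 of the 8 tested being lower in both models and none of the 11 at 0 throughout, and 4 of its own 5 markers were lower. The part of these in the LOH values was not tested.

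Of the transcription factors, Xbp1 rose in Endo of UUO. It stood at 87.2, 91.3, 116, 62.4 and 90.8 normalized CPM in the controls, 138, 127 and 148 in UIR and 195, 182 and 118 in UUO. Every injured library was above every control (1.86-fold higher in UUO, log2 fold change 0.89, SE 0.17, adjusted p = 0.00139). The UIR value was in the same direction and missed the threshold (log2 fold change 0.63, adjusted p = 0.0777), but passed without the filter on low counts, at the mitochondrial limit of 15% or without N2 or UUO2 (log2 fold changes 0.63 to 0.71, adjusted p 0.000709 to 0.0480). The change in UUO was kept under every alternative. In CD-P of UUO Xbp1 fell, at 144, 147, 154, 144 and 123 normalized CPM in the controls, 132, 142 and 139 in UIR and 122, 124 and 80.1 in UUO (log2 fold change -0.38, SE 0.14, adjusted p = 0.0404), with AN2 between 2 of the UUO libraries. Xbp1 lost its CD-P call in UUO without Ctrl, N1, N2, AN1, UIR2 or UUO2 (log2 fold changes -0.38 to -0.20, adjusted p 0.0516 to 0.248), without the N libraries (log2 fold change -0.33, adjusted p = 0.130) and with total UMIs as the only scaling, with the DESeq2 test, without the filter on low counts, at the mitochondrial limit of 15% or without the S100g cluster (log2 fold changes -0.48 to -0.13, adjusted p 0.0534 to 0.458). In DT Xbp1 passed with total UMIs as the only scaling in UIR (log2 fold change 0.71, adjusted p = 0.00444) and in UUO (log2 fold change 0.74, adjusted p = 0.00760), but not with TMM over all libraries.

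Ddit3 (CHOP) rose in CD-P of UIR, at 11.5, 17.6, 14.6, 17.7 and 15.3 normalized CPM in the controls, 23.4, 25.9 and 31.3 in UIR and 18.5, 31.0 and 14.5 in UUO. All UIR libraries were above the controls (1.79-fold higher, log2 fold change 0.84, SE 0.26, adjusted p = 0.0284). In UUO, where UUO2 lay within the controls, it did not pass (log2 fold change 0.56, adjusted p = 0.0891), but passed with total UMIs as the only scaling, without the filter on low counts or without UUO2 (log2 fold changes 0.59 to 0.81, adjusted p 0.0175 to 0.0416). Ddit3 lost its CD-P call in UIR without Ctrl or UIR2 (log2 fold changes 0.71 to 0.72, adjusted p 0.0898 to 0.129), without the N libraries or the AN libraries (log2 fold changes 0.90 to 0.94, adjusted p 0.0602 to 0.0643) and at the mitochondrial limit of 15% (log2 fold change 1.40, adjusted p = 0.204). In the other classes tested it passed in neither model, with log2 fold changes in UUO from -0.55 to 0.12. Atf4 was called in no class and no comparison with TMM, the filter on low counts and all libraries. Its smallest adjusted p against control was 0.0720, in CD-P of UUO, where it stood at 42.1, 32.6, 53.6, 54.3 and 60.1 normalized CPM in the controls, 49.99, 59.996 and 68.9 in UIR and 53.5, 66.6 and 71.8 in UUO (log2 fold change 0.40). There it passed with total UMIs as the only scaling, without the filter on low counts or without AN2, the unnumbered UUO library or the AN libraries (log2 fold changes 0.43 to 0.65, adjusted p 0.00800 to 0.0402). In Podo all injured libraries of Atf4 were above the controls, at 71.1 to 108 normalized CPM per control, 109 to 135 per UIR and 131 to 168 per UUO library, without passing in UIR (log2 fold change 0.48, adjusted p = 0.220) or UUO (log2 fold change 0.56, adjusted p = 0.186). The unnumbered UUO pool there held 28 cells and 27849 UMIs, with free RNA at 23.9%, and 3 UMIs stand for 108 CPM in it. Trib3 was tested in Endo alone, at 7.65, 5.80, 3.46, 3.20 and 3.13 normalized CPM in the controls, 6.17, 4.23 and 2.09 in UIR and 7.31, 6.405 and 6.77 in UUO. It did not pass (log2 fold change -0.27, adjusted p = 0.908 in UIR, log2 fold change 0.41, adjusted p = 0.599 in UUO).

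**Figure D5:**
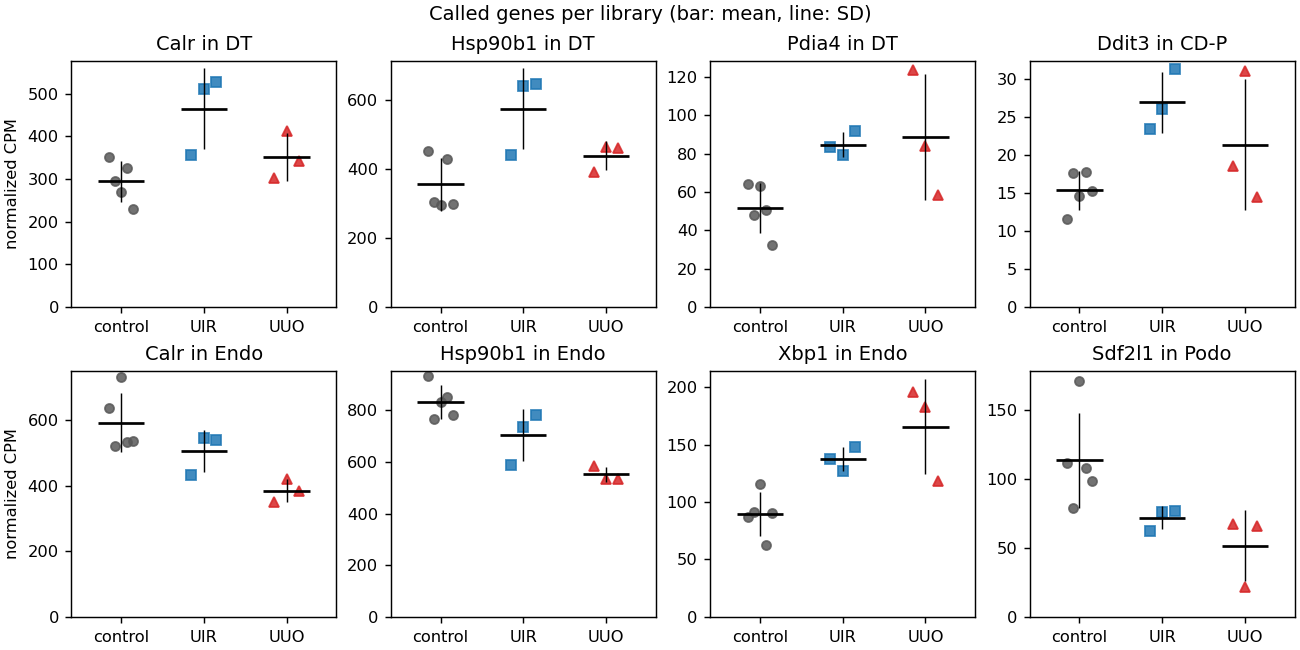
Called genes in the class of the call, in normalized CPM by library, each point 1 library, the bar the group mean and the line its SD (5 control, 3 UIR and 3 UUO libraries). Xbp1 in Endo rises from 62.4 to 116 in the controls to 118 to 195 in UUO, while Calr and Hsp90b1 in Endo fall and both rise in DT of UIR.

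Set directly against each other, UUO and UIR differed in 1 of 135 tests in 15 classes (0.741%), against 1.34% of all genes, and 32 tests had an unadjusted p under 0.05. Of all genes, the share with an unadjusted p under 0.05 ranged over the classes from 507 of 9848 in LOH to 1879 of 10739 in CD-P. Nothing is read from the 32. With the shared number as a replicate block 7 tests passed, 7 of them lower in UUO, and without the filter on low counts 5, 5 of them lower. The shares of all genes called in those fits are not given, so that nothing is read from these counts. The call was Hspa5 in PT (log2 fold change -1.44, SE 0.30, adjusted p = 0.0436), where 0.226% of all genes were called. This call was lost without Ctrl, AN1, UIR1, UIR2, the unnumbered UUO library, UUO1 or UUO2 (log2 fold changes -1.60 to -1.29, adjusted p 0.0540 to 0.168) and with DESeq2 size factors, with total UMIs as the only scaling, with free RNA subtracted, at the mitochondrial limit of 15% or with predicted doublets kept (log2 fold changes -1.66 to -0.62, adjusted p 0.0827 to 0.571). It was not tested with pools of at least 50 cells or cells of at least 1000 UMIs. Classes without enough control cells could be compared here. In Fibro 1, the matrix-forming fibroblasts, 8 of 9 genes had lower estimates in UUO (median log2 fold change -0.51, all genes 0.01), and Hspa5 stood at 959.7, 1219 and 958 normalized CPM in UIR and 673, 781 and 700.0 in UUO without passing (log2 fold change -0.54, adjusted p = 0.183). In the frTEC cluster led by Ubd, Herpud1 stood at 61.6, 90.7 and 128 in UIR and 147 and 105 in UUO (log2 fold change 0.39, adjusted p = 0.869).

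Whether the change of a gene differed between classes was tested directly, with each of LOH, DT, CD-P, CD-I, Endo and Macro against PT and the library as a block. In these fits TMM was computed over the pools of both classes together, a scale other than that of the changes within a class. The differences are therefore not those of the fold changes given above. For Hspa5 in UUO, LOH differed from PT by 1.04 here, beside within-class values of -0.70 in LOH and -1.49 in PT. In UIR 8 of 55 differences passed. Sdf2l1 had lower fold changes than in PT in LOH (difference of log2 fold changes -1.34, SE 0.29, adjusted p = 7.9e-05), CD-I (-1.43, SE 0.29, adjusted p = 0.000404), CD-P (-1.20, SE 0.26, adjusted p = 0.000583), DT (-1.11, SE 0.31, adjusted p = 0.00386) and Endo (-1.05, SE 0.26, adjusted p = 0.00236). DT exceeded PT for Hsp90b1 (0.59, SE 0.17, adjusted p = 0.00617) and Pdia4 (0.63, SE 0.22, adjusted p = 0.0223), and CD-P exceeded PT for Ddit3 (0.98, SE 0.29, adjusted p = 0.0138), where Ddit3 in PT stood at 24.5 normalized CPM in N2 and at 11.4 to 12.1 in the other controls. In the same tests of all genes in UIR, 16.9% passed for LOH, 22.8% for DT, 13.1% for CD-P, 7.90% for CD-I, 7.40% for Endo and 9.28% for Macro.

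In UUO 12 of 55 differences from PT passed. On the joint scale of these fits, the fold change of Hspa5 was above that of PT in all 6 classes, the difference of log2 fold changes being from 1.04, SE 0.29, adjusted p = 0.00860 in LOH to 1.54, SE 0.26, adjusted p = 4.79e-07 in Macro. DT exceeded PT also for Hsp90b1 (1.34, SE 0.24, adjusted p = 1.4e-05) and Calr (0.94, SE 0.25, adjusted p = 0.00573), and Macro for both (0.96, SE 0.25, adjusted p = 0.00408 and 0.86, SE 0.25, adjusted p = 0.0156). CD-P exceeded PT for Herpud1 (0.89, SE 0.30, adjusted p = 0.0472) and Endo for Xbp1 (1.55, SE 0.34, adjusted p = 0.000634). The CD-P differences were not recomputed without the S100g cluster. All of these rest on the 41 to 95 PT cells per UUO library, and without UUO2 34 in place of 20 differences passed in both models together. Of all genes, 6.60% passed for LOH, 7.39% for DT, 9.56% for CD-P, 5.50% for CD-I, 6.77% for Endo and 7.30% for Macro.

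The other genes of the pathway were taken from lists of 90 genes and counted in the same fits, on the TMM scale alone, where 13.2% of all genes tested were called in UIR and 17.0% in UUO. Values are means ± SD of normalized CPM (5 control and 3 injured libraries), and the libraries of the genes named do not overlap between the groups compared. The sensors and their kin had 0 higher and 2 lower of 51 tests in UIR and 1 higher and 3 lower of 52 tests in UUO. One of the falls was Creb3l2, a membrane-bound relative of ATF6, in LOH, at 108 ± 25.2 in the controls and 70.6 ± 4.87 in UUO (log2 fold change -0.56, SE 0.16, adjusted p = 0.0106). Other ER chaperones and isomerases had 13 higher and 3 lower of 167 tests in UIR and 13 higher and 11 lower of 178 tests in UUO. Pdia6, a disulfide isomerase like Pdia4, rose in DT of UIR, at 131 ± 22.5 in the controls and 256 ± 26.8 in UIR (log2 fold change 0.97, SE 0.15, adjusted p = 7.02e-06), and fell in Podo of UUO, at 845 ± 38.9 in the controls and 529.8 ± 111 in UUO (log2 fold change -0.57, SE 0.14, adjusted p = 0.0249). Dnajb11, a cochaperone of BiP, fell in Podo of UUO beside Sdf2l1, its known partner, at 228 ± 31.9 in the controls and 122 ± 39.3 in UUO (log2 fold change -0.82, SE 0.21, adjusted p = 0.0301). The Podo pool of the unnumbered UUO library held 27849 UMIs, so that its values rest on few UMIs. In PT of UIR, where Sdf2l1 rose, Ppib, a prolyl isomerase of the ER, rose too, at 175 ± 19.9 in the controls and 256 ± 35.3 in UIR (log2 fold change 0.55, SE 0.12, adjusted p = 0.00290).

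Degradation and translocation genes had 14 higher and 3 lower of 174 tests in UIR and 14 higher and 5 lower of 188 tests in UUO. Sec62, a part of the translocation machinery, fell in LOH of UUO, at 848 ± 53.8 in the controls and 532 ± 32.8 in UUO (log2 fold change -0.67, SE 0.13, adjusted p = 0.000209), as in UIR (log2 fold change -0.62). Edem2, which trims glycans of misfolded proteins, rose in DT of UUO, at 17.1 ± 2.37 in the controls and 40.5 ± 6.98 in UUO (log2 fold change 1.30, SE 0.29, adjusted p = 0.000538). In DT this list had 6 higher and 1 lower of 17 in UUO (median 0.44, all genes 0.03, of which 34.5% were called).

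Targets of ATF4 and the integrated stress response had 26 higher and 4 lower of 143 tests in UIR and 27 higher and 9 lower of 148 tests in UUO, against 13.2% and 17.0% of all genes. Nupr1, a stress-induced chromatin protein, rose in LOH of UIR, at 5.61 ± 5.63 in the controls and 62.5 ± 14.2 in UIR (log2 fold change 3.46, SE 0.42, adjusted p = 6.49e-07), in CD-P of UUO, at 1.93 ± 1.75 in the controls and 64.1 ± 33.1 in UUO (log2 fold change 4.84, SE 0.48, adjusted p = 2.68e-07), and in Macro of both models (log2 fold changes 2.74 and 2.62). In each of these the injured cells lay mostly in another cluster than those of control. Atf3 rose in LOH of UUO, at 1.74 ± 1.60 in the controls and 31.4 ± 7.69 in UUO (log2 fold change 4.198, SE 0.69, adjusted p = 3.24e-05). Cth, an enzyme of cysteine synthesis, fell in CD-P of UUO, at 44.4 ± 15.1 in the controls and 5.65 ± 0.406 in UUO (log2 fold change -2.94, SE 0.27, adjusted p = 9.85e-08), and in DT (log2 fold changes -1.75 in UIR and -1.70 in UUO). Slc3a2, a subunit of amino acid transporters, rose in Endo of UIR, at 197 ± 22.3 in the controls and 311 ± 11.8 in UIR (log2 fold change 0.66, SE 0.12, adjusted p = 0.00654). The part of the unequal sub-clusters of LOH, CD-P, DT and Macro in these changes was not tested.

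Genes of cell death linked to ER stress had 8 higher and 0 lower of 44 tests in UIR and 16 higher and 1 lower of 46 tests in UUO, beside the same 13.2% and 17.0% of all genes. Pmaip1 (NOXA), a BH3-only protein, rose in CD-P, at 3.82 ± 3.18 in the controls and 76.0 ± 35.6 in UIR (log2 fold change 4.35, SE 0.44, adjusted p = 2.11e-06), with a log2 fold change of 4.96 in UUO. Casp12, an ER-associated caspase, rose in LOH of UIR, at 3.23 ± 5.59 in the controls and 43.9 ± 3.76 in UIR (log2 fold change 3.68, SE 0.47, adjusted p = 1.12e-06), and in Endo of UUO, at 8.79 ± 4.53 in the controls and 23.8 ± 1.24 in UUO (log2 fold change 1.32, SE 0.27, adjusted p = 0.00271). Tnfrsf10b, the death receptor that CHOP induces, rose in Endo of UUO, at 6.25 ± 5.01 in the controls and 23.6 ± 5.08 in UUO (log2 fold change 1.68, SE 0.38, adjusted p = 0.00629), and Bbc3 (PUMA) in DT of UUO, at 3.19 ± 3.47 in the controls and 20.3 ± 3.07 in UUO (log2 fold change 2.54, SE 0.53, adjusted p = 0.000288). In CD-P of UUO all 6 of the 6 tested genes of this list rose (median log2 fold change 1.65, all genes 0.02, of which 39.2% were called). Control and injured cells of LOH, CD-P, DT and Endo took unequal shares of the sub-clusters, as given above. The part of this in these rises was not tested.

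Heat shock and dissociation genes, which respond to handling of the tissue as well as to stress in the cytosol, had 14 higher and 7 lower of 85 tests in UIR and 13 higher and 14 lower of 88 tests in UUO. Hspb1 (HSP27) rose in PT of UIR, at 2.26 ± 0.368 in the controls and 26.4 ± 0.924 in UIR (log2 fold change 3.52, SE 0.16, adjusted p = 8.9e-13), and Jun in CD-P of UUO, at 26.4 ± 13.9 in the controls and 437 ± 55.0 in UUO (log2 fold change 3.97, SE 0.24, adjusted p = 1.18e-09), while Hspa8 fell in CD-I of UUO, at 1304 ± 206 in the controls and 778 ± 71.5 in UUO (log2 fold change -0.74, SE 0.16, adjusted p = 0.00152). Summed over the list, CD-P pools held 1661 to 2395 CPM in control, 2186 to 2523 in UIR and 2441 to 2618 in UUO, and Endo pools 1676 to 3122, 1956 to 3225 and 1777 to 2268. The CD-P cells of control and UUO lay mostly in different clusters, as given above. The part of this in the Jun values, and of handling in the values of the ER genes, was not tested.

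Over 154 pools of 21 classes, the genes whose log2(CPM + 1) deviations from the class mean were most like those of Hspa5 were Hsp90b1 (r = 0.66), Manf (r = 0.59), Calr (r = 0.57), Magt1 (r = 0.57) and Rsrc1 (r = 0.49), among 3345 genes of at least 50 CPM on average. Hsp90b1 and Calr are among the genes described here, and their promoters hold the ERSE shown above, as does that of Hspa5, while Manf is an ER-resident factor of the chaperone list. For Ddit3 they were Gigyf2 (r = 0.68), Ccar1 (r = 0.66), Ccnt1 (r = 0.65), Ubn2 (r = 0.65) and Aff4 (r = 0.65), none of which is in the lists. These are descriptions, since pools of 1 library share its depth and preparation.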

How the data were processed

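The authors deposited raw UMI counts of every barcode and gene per library, with no correction for free RNA or doublets (Cell Ranger 3.1.0 in the file headers and the submitters' processing notes, mm10). Cells were called against empty droplets, and barcodes over 30% mitochondrial or 5% hemoglobin UMIs, under 200 genes, or among the 7.5% with the highest doublet score were left out. Of 43635 distinct barcodes within the other limits, counted before doublets were left out, 242 occurred in 2 or more libraries. Clustering (Leiden) left out the listed and marker genes. Counts summed per class and library were tested with edgeR 4.0.16 (R 4.3.3; filterByExpr, TMM, quasi-likelihood), the 3 groups in 1 fit per class, with Benjamini-Hochberg adjustment over all genes of the class. Replicate pools differed beyond sampling noise (chi-square per degree of freedom at least 1.63 over 48 pairs). The library without a number stood apart in each group. In Endo, Ctrl lay at 6.58 to 7.94 from the other controls, which lay at 1.88 to 2.83 from each other. The unnumbered UIR library lay at 11.8 and 13.2 from UIR1 and UIR2, themselves 2.74 apart. For UUO these values were 16.5, 18.3 and 4.08. PT and Macro had the same order. Whether these libraries share a run was not tested.

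The genes and lists were chosen with earlier results of these data known. From the other lists the text names, per class and model, genes out of up to 3 each way with the largest changes among those past the threshold, of at least 20 CPM and without overlap between libraries. Dnajb11 and Ppib were picked out of these for their place beside Sdf2l1. In simulated data the test recovered 25 of 60 genes changed by a log2 fold of 1 and 3 of 62 changed by 0.5 in LOH of UUO (9339 genes), and 32 of 64 changed by 2 in PT of UUO (11015 genes). The simulation changed fewer genes than were called in the data (30.4% of all genes in LOH of UUO) and gave every gene the same spread. Recovery in the data can therefore differ. Promoters were searched with Python 3.11.15 in RefSeq sequence.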

Additional observations from a re-analysis of the deposited data

Results flagged for a closer look

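In 4 of 82 control groups (4.88%) 1 library stood far from the other 4, in normalized CPM: Hspa5 in Endo of AN1 (648, the others 451 to 491), Ddit3 in PT of N2 (24.5, the others 11.4 to 12.1), Xbp1 in Podo of AN1 (265, the others 159 to 189) and Hsp90b1 in T/NK of AN2 (633, the others 331 to 398). Chance alone gives about 1 in 20 such groups. None of these values belongs to a change called against control with TMM. The Hsp90b1 value enters the T/NK change of UUO that passed with DESeq2 size factors or the DESeq2 test. Of the called differences from PT, the Ddit3 value enters that of CD-P in UIR and the Hspa5 value that of Endo in UUO.

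The change against control differed between a class and PT in 20 tests (edgeR, interaction of class and group, TMM over both classes together, adjusted p under 0.05). In UIR the log2 fold change differed from that of PT for Sdf2l1 by -1.34 in LOH, -1.11 in DT, -1.20 in CD-P, -1.43 in CD-I and -1.05 in Endo, Pdia4 by 0.63 in DT, Hsp90b1 by 0.59 in DT and Ddit3 by 0.98 in CD-P. In UUO it differed for Hspa5 by 1.04 in LOH, 1.20 in DT, 1.14 in CD-P, 1.12 in CD-I, 1.48 in Endo and 1.54 in Macro, Hsp90b1 by 1.34 in DT and 0.96 in Macro, Calr by 0.94 in DT and 0.86 in Macro, Herpud1 by 0.89 in CD-P and Xbp1 by 1.55 in Endo. The differences in UUO rest on PT pools of 41 to 95 cells and 48081 to 411044 UMIs.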

How the results depend on the processing

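Over all alternatives, 507 of 616 values of the 26 called changes kept their direction and their side of the threshold, 107 kept the direction alone and 2 turned. Those 2 were Hspa5 in LOH of UIR (log2 fold change 0.0504) and Hsp90b1 in LOH of UUO (0.26), at the mitochondrial limit of 15%, where LOH has 2 control pools left. The 5 changes kept throughout were Calr and Hsp90b1 in DT of UIR and Calr, Hsp90b1 and Xbp1 in Endo of UUO. Not every value could move. Leaving out the S100g cluster changes CD-P pools alone, and all Endo pools (113 to 624 cells) pass the limit of 50 cells. The number of calls in UUO, 18, went to 9 at the 15% limit (5 higher, 4 lower, of 64 tests in place of 89) and 11 without the AN controls, and to 11 to 20 with 1 library left out. That in UIR, 7, went to 5 to 10 with 1 library left out. That of UUO against UIR, 1, went to 0 with DESeq2 size factors, total UMIs, free RNA subtracted, the 15% limit or doublets kept, to 0 with cells of at least 1000 UMIs or pools of at least 50 cells, where PT of UUO kept 1 pool and was not tested, to 5 without the low-count filter and to 0 to 1 with 1 library left out. Differences between classes, 20, went to 17 to 34 with 1 library left out. At the 15% limit the calls of CD-I, with 1 control pool left, were not tested, nor was that of Hspa5 in PT of UUO with cells of at least 1000 UMIs or pools of at least 50 cells, and those of DT of UUO with such pools. The cause of the other moves was not tested. Shares of all genes called under the alternatives are not given, so that nothing is read from these numbers of calls. A further 73 values of uncalled changes passed under some alternative, 0 of them in the other direction.

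UIR and UUO share the numbers 1, 2 and none, which the labels do not call a pairing. Of 36 same-number pairs in 12 classes, 14 deviated together with r over 0.1 (-0.16 to 0.46, median 0.0919), and 16 of 36 UIR pools correlated best with their own number, so that the numbers were not taken as pairs. With the number as a replicate block, 7 tests of UUO against UIR were called, 7 of them lower in UUO. The share of all genes called in that fit is not given, so that nothing is read from this count.

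Limits: PT of UUO and Podo of the unnumbered UUO library hold few UMIs, and a change of a low gene such as Sdf2l1 or Ddit3 was not detectable there unless large. Changes of a log2 fold of 0.5 were seldom recovered in simulated data, where fewer genes changed than were called here. Spliced Xbp1, protein levels and sham surgery were not measured.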

Other observations

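Several immune classes had too few control cells for a comparison. The neutrophil pools, all of UUO, held Ddit3 at 193, 114 and 225 CPM and Hspa5 at 352, 393 and 494 CPM. Monocyte pools of UUO held Xbp1 at 314, 330.0 and 318 CPM and cDC1 pools Sdf2l1 at 218 and 229 CPM in UIR and 317, 259 and 317 in UUO.

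Among the controls, Hspa5 was lowest in N1 in 6 of the 9 classes with all 5 libraries, and highest in AN1 or AN2 in 4 and 3 of them. For Hsp90b1 N1 was lowest in 5 of 9. N1 shares the prefix of its name with N2, in which Hspa5 was lowest in 1 class.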
